A study of Homo sapiens with 6 samples.

Results

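The aldehyde dehydrogenases described here are 10 genes, ALDH1A1, ALDH1A2, ALDH1A3, ALDH1B1, ALDH2, ALDH3A1, ALDH3A2, ALDH3B1, ALDH7A1 and ALDH18A1. They were taken by gene symbol from a table of 20811 genes that holds 19 genes of this superfamily, and the other 9 are given beside them. The cells were HuCCT1, an established human intrahepatic cholangiocarcinoma (iCCA) line. CD90 is a surface glycoprotein encoded by THY1, and HuCCT1/CD90+ cells were transduced with human THY1 in a lentivirus with a CMV promoter and GFP. HuCCT1/CD90- cells received the empty vector, with CMV-driven GFP and a puromycin gene. No drug was given to the cells sequenced, and 3 libraries of each line were read with an amplicon panel that measures each gene over 1 short amplicon. Each condition is 1 transduced line, so an effect of THY1 and any other difference that arose between the lines cannot be told apart.

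Aldehyde dehydrogenases oxidise aldehydes to carboxylic acids with NAD or NADP as the cofactor. They clear reactive aldehydes from ethanol, membrane lipids and xenobiotics, and some members instead make a signal or a building block: the ALDH1A enzymes turn retinal into retinoic acid, the ligand of the nuclear receptors RAR and RXR. Tumour cells with high aldehyde dehydrogenase activity are often isolated as a stem-like population, and CD90 is itself used as a stem cell marker in liver cancer.

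Most members shared the cysteine that attacks the aldehyde, and the coding bases around it show which members are close relatives. The aldehyde dehydrogenase cysteine active-site pattern was searched in the longest coding sequence of each gene in GENCODE (GRCh38) and was found once in 8 of the 10 members. ALDH7A1 and ALDH18A1 did not match it, which says only that those letters were not in these sequences. The 36 coding bases, or 12 codons, around the match are given here with the cysteine codon in capitals.
ALDH1A1: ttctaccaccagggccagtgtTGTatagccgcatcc
ALDH1A2: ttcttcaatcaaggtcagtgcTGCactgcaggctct
ALDH1A3: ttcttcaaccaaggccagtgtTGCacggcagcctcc
ALDH1B1: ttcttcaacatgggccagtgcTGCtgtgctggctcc
ALDH2: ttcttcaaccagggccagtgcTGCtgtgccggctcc
ALDH3A1: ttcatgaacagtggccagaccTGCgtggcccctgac
ALDH3A2: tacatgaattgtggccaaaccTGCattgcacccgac
ALDH3B1: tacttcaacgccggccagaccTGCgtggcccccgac

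The stretches of ALDH1B1 and ALDH2, the mitochondrial pair, differed at 3 of the 36 bases, and those of ALDH3A1 and ALDH3B1 at 7, whereas ALDH1A1 and ALDH3A2 differed at 20. They lie in coding exons, that of ALDH3A1 in exon 5 of 10 at chr17:19741156-19741191 on the minus strand and that of ALDH3B1 in exon 7 of 10 at chr11:68021631-68021666 on the plus strand. The stretch of ALDH1A3 is in exon 9 of 13 at chr15:100900610-100900645 on the plus strand, and that of ALDH1A1 in exon 9 of 13 at chr9:72917034-72917069 on the minus strand. ALDH1B1 stands out in gene structure, since its stretch lies in exon 2 of 2, at chr9:38396682-38396717 on the plus strand. Over whole coding sequences, pairs within the ALDH1 and ALDH2 group were 64.9 to 73.2% identical. ALDH3B1 was 86.5% identical to ALDH3B2, with a longest identical run of 64 bases, so reads of this pair could be shared and their values are uncertain. Where the amplicons lie is not given in the sources used here, and levels are therefore compared between lines and never between genes.

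In HuCCT1/CD90+ cells 6 of the 10 members fell past an adjusted p threshold of 0.05, and none rose (limma on log2(RPM + 1), Benjamini-Hochberg over all genes). RPM is the number of reads scaled to a common library total. ALDH1B1 alone was higher at an unadjusted p under 0.05, and edgeR and DESeq2 called 0 members higher. In the limma test 9.52% of all genes were lower and 9.41% higher. The 6 were ALDH3A1, ALDH3B1, ALDH1A3, ALDH7A1, ALDH2 and ALDH1A2. ALDH1A2 is under 1 RPM on average, a level at which the limma fit of all genes made most of its false calls in simulated data. In a fit restricted to genes averaging 1 RPM or more, 21.1% of genes were lower and 20.6% higher. ALDH3A1 and ALDH3A2 entered that fit through HuCCT1/CD90- alone, so no count over the members is drawn from it. The 3 libraries of the lines did not overlap for any member: 9 members were lower in every HuCCT1/CD90+ library than in any HuCCT1/CD90- library, and ALDH1B1 was higher. This order, lower in HuCCT1/CD90+, held for 17.7% of all genes and for 26.9% of those averaging 1 RPM or more. The members were listed with earlier results of these data known, so their count describes these 10 genes and not the superfamily.

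At the thresholds of the study's methods, a minimum fold of 1.5 with an unadjusted p up to 0.05, 7 members were lower and 0 higher, beside 9.98% and 10.1% of all genes. The replicate numbers were taken to pair the libraries, and with the replicate block 5 members were lower beside 6.4% of genes. ALDH1A2 was the member lost. The median log2 fold change of the 10 members was -0.75, and over all genes it was 0. It was -0.70 with ALDH1A2 set to the bound that its read floor allows.

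**Figure D1:**
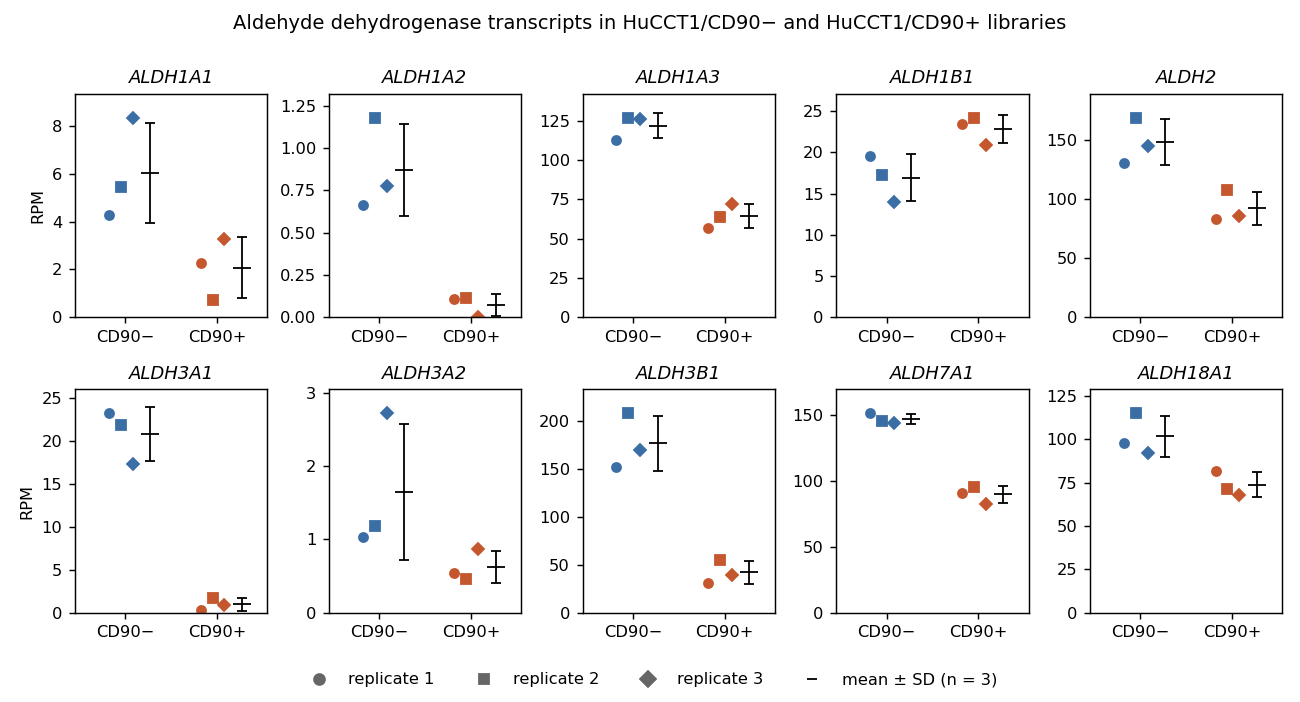
Level in RPM (vertical axes, linear and starting at 0, each with its own scale) of the 10 members in the 3 HuCCT1/CD90- and 3 HuCCT1/CD90+ libraries. Symbols mark the replicate number and black bars the mean ± SD (n = 3). In every panel the libraries of the lines are apart, with ALDH1B1 the panel where HuCCT1/CD90+ is above.

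The ALDH1A enzymes make retinoic acid from retinal, and ALDH1A3 is one of the forms linked to aldehyde dehydrogenase activity in carcinoma cells. ALDH1A3 was at 113, 127 and 126 RPM in the HuCCT1/CD90- libraries and at 56.9, 63.6 and 72.2 RPM in the HuCCT1/CD90+ libraries. The highest HuCCT1/CD90+ library stayed well under the lowest HuCCT1/CD90- library. Its mean fell from 122 ± 7.85 to 64.2 ± 7.64 RPM (SD, n = 3), a log2 fold change of -0.92 (standard error, SE, 0.11, limma adjusted p = 0.0085). The call held with each of the 6 libraries left out. The median over the 50 nearest expressed genes on chromosome 15 was 0.31 in the opposite direction, and the fold change of ALDH1A3 relative to them was -1.23. The neighbours of ALDH1A1 and ALDH18A1 had the same sign, with medians of -0.142 and -0.115, and relative to these the fold changes were -1.11 and -0.34. The medians around the other members except ALDH3B1 lay between -0.090 and 0.087.

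ALDH1A1 is the cytosolic retinal dehydrogenase that gave the activity assay for stem-like cells its target. It was at 4.26, 5.46 and 8.34 RPM in HuCCT1/CD90- and at 2.25, 0.699 and 3.25 RPM in HuCCT1/CD90+, which is 45 to 86 reads against 6 to 30 reads per library. The lines did not overlap, but the libraries of each line spread widely, with coefficients of variation of 34.8% and 62.3%. The log2 fold change was -1.25 (SE 0.44, 95% CI -2.42 to -0.08) and the adjusted p of 0.137 from limma missed the threshold. In the limma fit restricted to genes of at least 1 RPM the adjusted p was 0.0071. Within limma the call of ALDH1A1 therefore differed with and without the weakly read genes. edgeR on the recovered reads gave an adjusted p of 0.0038 and DESeq2 0.0030, and why they differed from limma over all genes was not tested.

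ALDH1A2, the retinal dehydrogenase of embryonic and mesenchymal tissues, was hardly read. Its reads numbered 7, 11 and 8 in HuCCT1/CD90- against 1, 1 and 0 in HuCCT1/CD90+, which is 0.663 to 1.18 RPM against 0 to 0.116 RPM. Every HuCCT1/CD90+ library was at or under the floor of 3 reads, which equals 0.284 to 0.349 RPM. Over the summed reads, 26 against 2, HuCCT1/CD90- was 11.7-fold higher, with a 95% exact interval for counting error only of 2.92 to 102. The log2 fold change of -0.79 on the RPM + 1 scale (SE 0.12, limma adjusted p = 0.018) understates such a change. The call did not hold with the replicate block (adjusted p = 0.056), nor with HuCCT1/CD90- replicate 3 or any single HuCCT1/CD90+ library left out (adjusted p from 0.059 to 0.069), and ALDH1A2 was too weak to enter the restricted fit.

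ALDH1B1 and ALDH2 are close relatives that both work in mitochondria, where ALDH2 clears the acetaldehyde formed from ethanol. Their measured directions were opposite. ALDH2 was at 131, 169 and 145 RPM in HuCCT1/CD90- and at 82.8, 108 and 85.7 RPM in HuCCT1/CD90+. In both lines replicate 2 was the highest library. The mean fell from 149 ± 19.2 to 92.2 ± 13.8 RPM (SD, n = 3), a log2 fold change of -0.69 (SE 0.15, limma adjusted p = 0.045). This p is close to the threshold: the call was lost with any library but HuCCT1/CD90+ replicate 2 left out (adjusted p from 0.073 to 0.143) and with the trend and robust settings of eBayes (adjusted p = 0.053). It was kept with the replicate block (adjusted p = 0.021) and in the restricted fit (adjusted p = 0.0072).

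ALDH1B1, which is expressed in stem and progenitor cells of the gut and pancreas, was at 19.6, 17.2 and 14.0 RPM in HuCCT1/CD90- and at 23.4, 24.2 and 20.9 RPM in HuCCT1/CD90+. It was the 1 member with every HuCCT1/CD90+ library above every HuCCT1/CD90- library. The means were 16.9 ± 2.84 and 22.8 ± 1.70 RPM (SD, n = 3), and the log2 fold change of 0.42 (SE 0.14, 95% CI 0.05 to 0.79) had a limma adjusted p of 0.123. It also missed the threshold in the restricted fit (adjusted p = 0.062) and with edgeR (adjusted p = 0.076) and DESeq2 (adjusted p = 0.093). A fit that joined the restriction with the replicate block, added after the data were seen, put it at an adjusted p of 0.031.

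The ALDH3 enzymes oxidise medium and long chain aldehydes from lipids and aromatic aldehydes, and on the log2(RPM + 1) scale they held the 2 largest changes. ALDH3A1, which is abundant in cornea and stomach and oxidises aromatic and lipid-derived aldehydes, was at 23.2, 21.9 and 17.3 RPM in HuCCT1/CD90- (178 to 245 reads). In HuCCT1/CD90+ it was at 0.322, 1.75 and 0.868 RPM (3 to 15 reads). The 3 HuCCT1/CD90- libraries were close to each other, while the few reads left in HuCCT1/CD90+ varied with a coefficient of variation of 73.4%. The mean fell 21.3-fold, from 20.8 ± 3.13 to 0.979 ± 0.719 RPM (SD, n = 3), and the log2 fold change was -3.52 (SE 0.31, limma adjusted p = 0.0044). No setting changed this call. The size rests on few HuCCT1/CD90+ reads, and without HuCCT1/CD90+ replicate 2 the fold of the means was 35.0.

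ALDH3B1, which sits at membranes and acts on lipid peroxidation aldehydes, was at 152, 208 and 170 RPM in HuCCT1/CD90- and at 31.5, 55.5 and 39.7 RPM in HuCCT1/CD90+. Replicate 2 was the highest library of each line and replicate 1 the lowest, as for ALDH2. The mean fell 4.19-fold, from 177 ± 28.2 to 42.3 ± 12.2 RPM (SD, n = 3), with a log2 fold change of -2.07 (SE 0.25, limma adjusted p = 0.010). The call held in every fit run. Its near copy ALDH3B2 had no reads (0) in HuCCT1/CD90- and only 1, 2 and 4 in HuCCT1/CD90+. The median over the 50 nearest expressed genes on chromosome 11 was 0.26 (log2), opposite to that of ALDH3B1.

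ALDH3A2, the fatty aldehyde dehydrogenase of the endoplasmic reticulum that is mutated in Sjögren-Larsson syndrome, was at 1.04, 1.18 and 2.72 RPM in HuCCT1/CD90- and at 0.536, 0.466 and 0.868 RPM in HuCCT1/CD90+. Replicate 3 was the highest library of each line. The log2 fold change of -0.66 (SE 0.28, 95% CI -1.40 to 0.09) did not pass the test (limma adjusted p = 0.208), and the restricted fit, which it entered only through its HuCCT1/CD90- level, gave 0.035. DESeq2 gave an adjusted p of 0.109. It had 11 to 28 reads per HuCCT1/CD90- library and 4 to 8 per HuCCT1/CD90+ library, with coefficients of variation of 56.5% and 34.5%.

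ALDH7A1 and ALDH18A1 serve amino acid metabolism. ALDH7A1, or antiquitin, oxidises the semialdehyde formed in lysine breakdown and also betaine aldehyde. It was at 151, 145 and 144 RPM in HuCCT1/CD90- and at 91.0, 95.4 and 82.6 RPM in HuCCT1/CD90+. These were the tightest values of any member, with coefficients of variation of 2.65% and 7.25%. The mean fell from 147 ± 3.89 to 89.7 ± 6.50 RPM (SD, n = 3), a log2 fold change of -0.70 (SE 0.06, limma adjusted p = 0.0041), and the call held in every fit run.

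ALDH18A1 makes pyrroline-5-carboxylate from glutamate, the entry step of proline synthesis, and unlike the other members it works as a synthetase. It was at 97.8, 115 and 92.4 RPM in HuCCT1/CD90- and at 81.8, 71.6 and 67.8 RPM in HuCCT1/CD90+. The gap between the lowest HuCCT1/CD90- and the highest HuCCT1/CD90+ library was narrower than the range within either line. The log2 fold change of -0.46 (SE 0.12, 95% CI -0.77 to -0.15) missed the threshold (limma adjusted p = 0.066) and passed it in the restricted fit (adjusted p = 0.037), with edgeR (adjusted p = 0.016) and with DESeq2 (adjusted p = 0.013). With the replicate block and all genes it did not (adjusted p = 0.134).

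**Figure D2:**
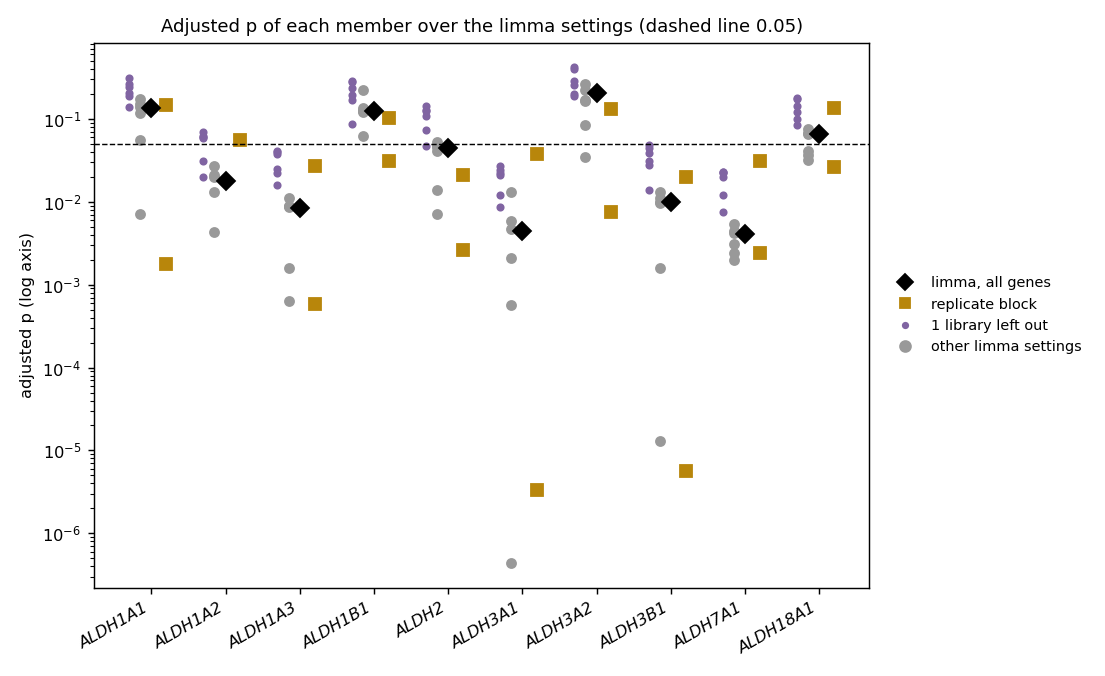
Adjusted p (vertical axis, log scale) of each member in the limma fit of all genes (black diamonds), with the replicate block (squares, with all genes or only those of at least 1 RPM), with 1 library left out (small dots) and under the other limma settings (grey circles); the dashed line is 0.05. ALDH1A3, ALDH3A1, ALDH3B1 and ALDH7A1 have all their points under the line, and ALDH1B1 has most of its points above it.

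Of the other 9 aldehyde dehydrogenases none passed the test, and their median log2 fold change was 0.01. With limma over all genes 3 of them had an unadjusted p under 0.05. ALDH9A1, which acts on aminoaldehydes, was at 212, 184 and 248 RPM in HuCCT1/CD90- and at 163, 143 and 168 RPM in HuCCT1/CD90+, with a log2 fold change of -0.43 (limma adjusted p = 0.105) and no overlap. Its adjusted p was 0.052 in the restricted fit, 0.017 with edgeR and 0.014 with DESeq2. ALDH5A1, the succinic semialdehyde dehydrogenase of GABA breakdown, was at 16.0 ± 1.38 RPM against 24.8 ± 4.07 RPM (SD, n = 3) without overlap, with a log2 fold change of 0.59. Its adjusted p was 0.053 with limma, 0.014 in the restricted fit, 0.011 with edgeR and 0.0085 with DESeq2. edgeR tested 6 of the 9 and called 2, beside 5349 of 12070 genes. DESeq2, which gave no value for ALDH8A1, also called 2, beside 5326 of 14399 genes. ALDH4A1, which ends proline breakdown, ranged over 9.89 to 14.6 RPM against 11.4 to 17.5 RPM, and ALDH16A1 was at 109 to 146 and 77.8 to 120 RPM. In both genes the lines overlapped, as they did in ALDH6A1 (1.80 to 3.21 and 2.04 to 3.14 RPM) and ALDH1L2 (3.79 to 8.99 and 3.32 to 7.38 RPM). ALDH1L1 had 2 reads in all in HuCCT1/CD90- and 13 in HuCCT1/CD90+, and ALDH8A1 had 0 in every library. Whether the 10 members differed from these 9 was not tested.

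**Figure D3:**
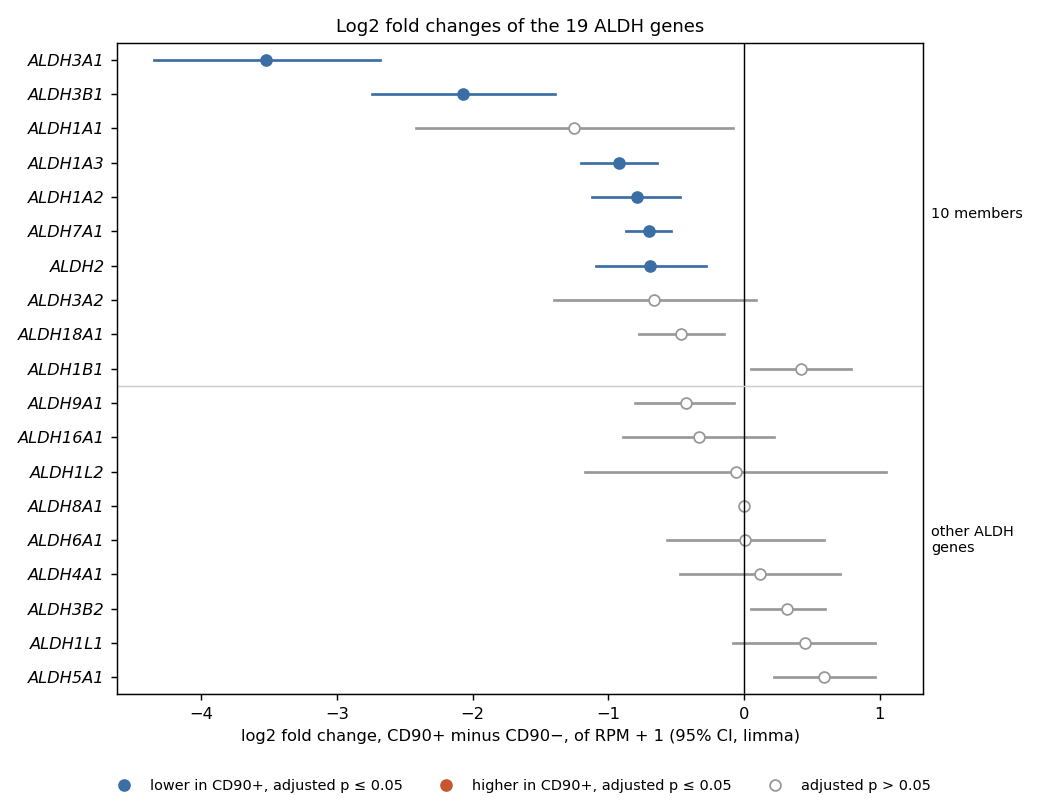
Log2 fold change of RPM + 1, HuCCT1/CD90+ minus HuCCT1/CD90- (horizontal axis), with its 95% confidence interval from limma for the 19 ALDH genes, the 10 members above the line and the other 9 below it. Filled points passed an adjusted p of 0.05: 6 members do, from -3.52 for ALDH3A1 to -0.69 for ALDH2, and none of the other genes does.

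The retinoid pathway in which the ALDH1A enzymes act was followed over 20 further genes, of which 6 fell, 2 rose and 12 did not pass the test, beside 9.52% of all genes lower and 9.41% higher, so that the share that rose was near that of all genes. With the replicate block 5 fell and 2 rose, beside 6.4% and 6.72% of all genes. Among the binding proteins, RBP4, the retinol carrier of plasma, had 43 reads in all in HuCCT1/CD90- and 1 in HuCCT1/CD90+, a ratio of 38.6 with a 95% exact interval of 6.57 to 1561, and a log2 fold change of -1.21 (limma adjusted p = 0.0054). Like ALDH1A2 it is under 1 RPM on average.

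CRABP2, which carries retinoic acid to the nuclear receptors, rose (114, 102 and 89.9 RPM against 164, 170 and 146 RPM, log2 fold change 0.65, limma adjusted p = 0.024). Among the enzymes, DHRS3, which turns retinal back into retinol, fell from 127 ± 8.14 to 57.0 ± 11.4 RPM (SD, n = 3), and RDH11, a retinal reductase of the endoplasmic reticulum, rose from 110 ± 5.28 to 183 ± 14.5 RPM. CYP26B1, which degrades retinoic acid, was at 8.91, 9.10 and 9.41 RPM in HuCCT1/CD90- and at 0.322, 0.582 and 0.868 RPM in HuCCT1/CD90+ (log2 fold change -2.69, limma adjusted p = 0.0012). Of the receptors RARB (log2 fold change -0.80) and RARG (-0.54) fell, RARB only without the replicate block (adjusted p = 0.10 with it). CRABP2, RDH11, RARB and RARG are named because the counts they make up are small.

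**Figure D4:**
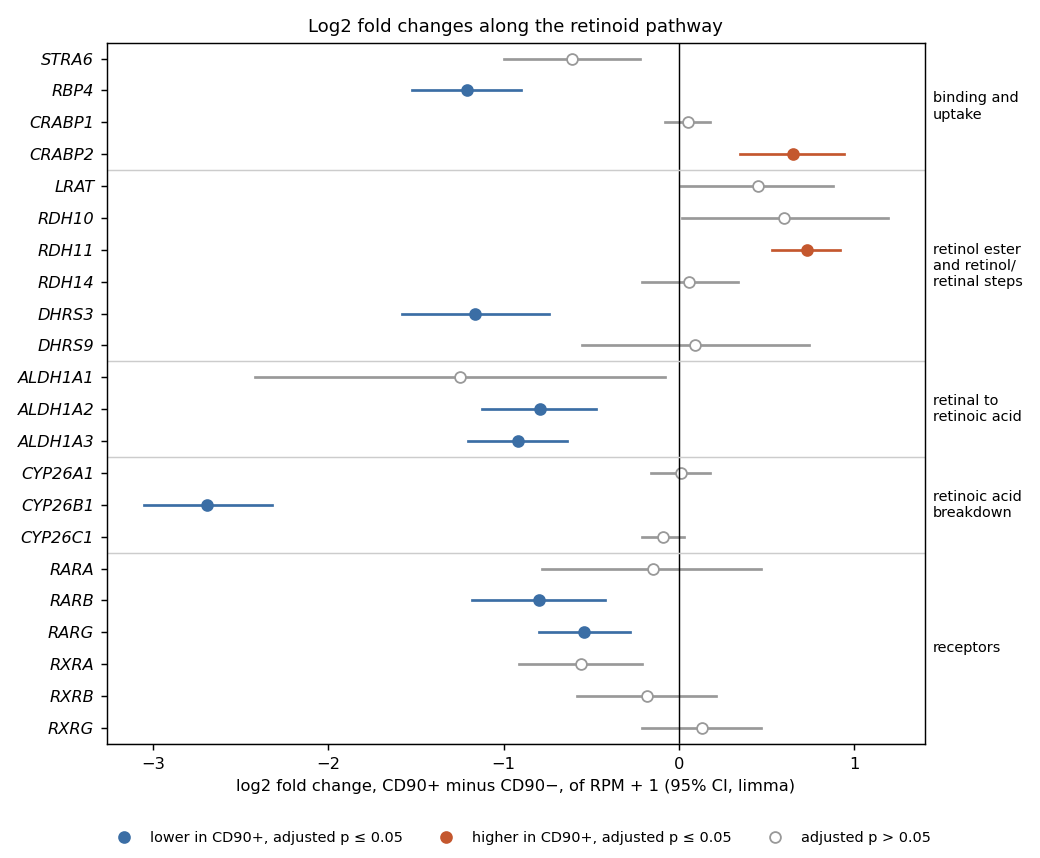
Log2 fold change of RPM + 1, HuCCT1/CD90+ minus HuCCT1/CD90- (horizontal axis), with its 95% confidence interval from limma for 19 retinoid pathway genes and the 3 ALDH1A genes, ordered by role. Filled points passed an adjusted p of 0.05; CYP26B1 lies farthest to the left, and CRABP2 and RDH11 are the filled points above 0.

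Of 12 genes known to be induced by retinoic acid, 7 of which also stand in the pathway list, 5 fell and 1 rose (9.52% and 9.41% of all genes), and with the replicate block 3 fell and 1 rose (6.4% and 6.72%). The share that rose was near that of all genes. RARRES1, a retinoic acid receptor responder, was at 17.3, 13.9 and 18.8 RPM in HuCCT1/CD90- and at 1.18, 0.815 and 1.41 RPM in HuCCT1/CD90+ (log2 fold change -3.05, limma adjusted p = 0.0013). The others that fell were CYP26B1, DHRS3, RARB and NRIP1, and the one that rose was CRABP2. RARB and NRIP1 did not pass with the replicate block (limma adjusted p = 0.10 and 0.09). Over these 12 genes the median was -0.45 (log2). Retinoic acid itself was not measured.

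Other enzymes of aldehyde and alcohol metabolism were read beside the members. Of 15 alcohol dehydrogenases, aldo-keto reductases, carbonyl reductases and AOX1, 4 fell and 1 rose, beside 9.52% and 9.41% of all genes. The 4 that fell had log2 fold changes from -0.92 to -0.43. With the replicate block 1 fell and 1 rose (6.4% and 6.72% of all genes). The share that rose, and both shares with the replicate block, were near those of all genes. AKR1B1, aldose reductase, rose from 3.89, 3.53 and 4.66 RPM to 35.7, 21.5 and 27.5 RPM, 7.02-fold (log2 fold change 2.52, limma adjusted p = 0.0038), while 6 of the 15 genes were at or under the floor in both lines. These 6 genes hold the median log2 fold change of the 15 at 0.00. Over the 9 genes averaging 1 RPM or more it was -0.43.

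The list around ALDH18A1, 8 genes of proline metabolism, had 1 gene that rose and none that fell, a share near the 9.41% of all genes that rose. That gene was ARG2, the mitochondrial arginase, which went from 5.92 ± 0.732 to 32.6 ± 6.03 RPM (SD, n = 3, log2 fold change 2.27, limma adjusted p = 0.0023). PYCR1, the next enzyme of proline synthesis after ALDH18A1, was at 96.3, 114 and 91.0 RPM against 83.2, 107 and 81.6 RPM (log2 fold change -0.15, limma adjusted p = 0.601), and its lines overlapped. Of 9 genes of lysine and betaine metabolism, the list around ALDH7A1, only GCDH passed, with a log2 fold change of 0.86 (limma adjusted p = 0.029), and none did with the replicate block. This share too is near that of all genes.

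ALDH3A1 is often listed among targets of NRF2, the transcription factor of the oxidative stress response. Of 12 other NRF2 targets 6 fell and none rose (9.52% and 9.41% of all genes), and with the replicate block 2 fell (6.4% of all genes). NQO1, a quinone reductase, was at 433, 385 and 431 RPM in HuCCT1/CD90- and at 146, 179 and 177 RPM in HuCCT1/CD90+ (log2 fold change -1.32, limma adjusted p = 0.0032). The aldo-keto reductases AKR1C3, AKR1C2 and AKR1C1 fell too (log2 fold changes -2.95, -2.18 and -1.96). They are close relatives whose sequences were not compared here and whose reads could be shared, so their values are uncertain. With the replicate block AKR1C1 and AKR1C2 did not pass (limma adjusted p = 0.055 and 0.070). SRXN1, HMOX1, TXNRD1 and GCLC, also NRF2 targets, had log2 fold changes of 0.16, 0.10, -0.10 and 0.45 and did not pass the test. Nor did SLC7A11, with a log2 fold change of 1.28, though edgeR put it at adjusted p = 0.028.

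The bases before the start sites of the members were searched for short motifs, chosen after the fold changes were known. RefSeq promoters (GRCh38.p14) were found for 8 of the 10 members, with 11 start sites in all, and the 150 bases that end 5 bases before each start were read on both strands. In GENCODE several of these windows overlap exons of their own gene, and the ALDH1A2 window at chr15:58014029-58014178 overlaps coding sequence. The ALDH1A1 window and the second ALDH3B1 window lie within their annotated gene, without an exon overlap. GGGCGG was in 5 of the 11 windows and in 36.5% of 35116 windows of all genes, and CCAAT in 6 of the 11 and in 23.7% of all. CACCTG was in 1 of the 11 (10.7% of all). TATAAA (6.8% of all), TGACNNNGC (7.26%), TGANTCA (4.23%), AGGTCA (7.65%) and GGAATG (7.09%) were in none. The windows of ALDH3B1, which on the log2(RPM + 1) scale fell the most among members with a promoter in the table, and of ALDH1A1 are shown with GGGCGG and CCAAT, on either strand, in capitals, at chr11:68008392-68008541 and chr11:68010172-68010321 on the plus strand and chr9:72953059-72953208 on the minus strand.
ALDH3B1 first start: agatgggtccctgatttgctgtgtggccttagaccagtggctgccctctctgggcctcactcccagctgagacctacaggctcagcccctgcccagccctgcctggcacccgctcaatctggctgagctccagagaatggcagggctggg
ALDH3B1 second start: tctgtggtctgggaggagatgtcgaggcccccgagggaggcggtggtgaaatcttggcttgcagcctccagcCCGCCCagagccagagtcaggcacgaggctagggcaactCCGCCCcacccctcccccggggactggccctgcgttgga
ALDH1A1: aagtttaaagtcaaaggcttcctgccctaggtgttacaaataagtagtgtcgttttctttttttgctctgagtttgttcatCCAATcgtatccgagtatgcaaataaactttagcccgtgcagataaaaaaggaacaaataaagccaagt

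The ALDH3B1 windows had a G and C content of 64.0 and 68.7% and that of ALDH1A1 36.7%, beside a median of 59.3% over all genes. No motif searched was shared by these 3 windows. A match describes letters, and no binding was measured.

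The libraries held 8587634 to 10551516 reads on genes. Reads of THY1 numbered 0, 1 and 0 in HuCCT1/CD90- against 435, 445 and 680 in HuCCT1/CD90+, which is at least 179-fold over the 3-read limit, and the lines matched their labels. Bulk libraries cannot tell fewer cells that express a gene from less RNA per cell. The marker counts stand beside 9.52% of all genes lower and 9.41% higher, or 6.4% and 6.72% with the replicate block. The 7 cholangiocyte markers were read in every library, with sums of 8210 to 9314 RPM against 10974 to 11722 RPM. Of these 5 rose (3 with the replicate block), EPCAM (log2 fold change 3.62) the most. Of 6 fibroblast markers 5 fell and 1 did not pass the test, and only 4 of the 6 averaged 1 RPM or more. Among those that fell, DCN, PDGFRB and LUM had log2 fold changes of -2.77, -1.94 and -1.69. The sum of the 6 markers was 41.8 to 64.9 RPM against 20.3 to 24.7 RPM. With the replicate block 2 of them fell. Of 6 hepatocyte markers APOA1 and SERPINA1 fell (log2 fold changes -1.76 and -1.13). SERPINA1 is under 1 RPM on average and had a limma adjusted p of 0.071 with the replicate block. The 6 hepatocyte markers summed to 3.69 to 5.88 RPM against 0 to 0.814 RPM, with ALB at 1 read or none in each library. The 4 endothelial markers summed to 14.5 to 23.2 RPM against 0.643 to 1.51 RPM and CDH5 fell (log2 fold change -3.76), while of the 4 leukocyte markers, with sums of 46.5 to 55.9 and 83.9 to 100 RPM, CD68 rose and PTPRC was at 1 read or none. Several of these markers moved with the members, and their part in the members' changes was not tested.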

How the data were processed

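Total RNA of 3 HuCCT1/CD90- and 3 HuCCT1/CD90+ libraries was read with the Ion AmpliSeq Transcriptome panel on the Ion GeneStudio S5 Prime instrument, and reads were counted per amplicon with the ampliSeqRNA plugin. The deposited values are RPM, made by the authors, for 20811 genes without a filter, and the submitters' processing notes name hg19 and Transcriptome Analysis Console. From 99.97 to 100.0% of the values of a library were whole reads within 0.05 read. PCR reads without molecular identifiers are not independent molecules, so floors and intervals cover counting error only. The labels do not say that libraries came from separate cultures, so p-values measure the spread between these libraries, which may be technical.

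Log2(RPM + 1) was tested over all genes with limma 3.58.1 in R 4.3.3 (lmFit and eBayes, two-sided, Benjamini-Hochberg), and this scale understates changes of weak genes. Beside it, edgeR 4.0.16 (quasi-likelihood, TMM, filterByExpr) on the recovered reads called 5349 of 12070 genes, DESeq2 1.42.0 called 5326 of 14399, and limma 3939 of 20811. Code was tested on simulated data. There limma over all genes recovered fewer changes than the other fits and most of its false calls were at genes under 1 RPM, and its recovery requirement was relaxed after this was seen. Deviations of same-numbered libraries from their line's mean correlated with r = 0.209, 0.32 and 0.178, and of other pairs with -0.294 to 0.0706. On this check alone the numbers were taken to pair the libraries, and the replicate block was an alternative. All library pairs differed by more than sampling noise, with a chi-square per degree of freedom from 9.66 to 26.5.

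Members and gene lists were chosen with earlier results of these data known. All 19 ALDH genes are named. Of other lists, called genes with an absolute log2 fold change of at least 1 are named, at most 6 per list, with exceptions stated in the text, and 3 genes that the lists count are not reported here. Promoters were from RefSeq and coding sequences from GENCODE, and 19883 genes could be placed for the medians of 50 neighbouring genes (mean of 10 RPM or more). The motifs, the sequence windows and the fit that joins the replicate block with the restriction to 1 RPM were chosen after seeing the data.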

Additional observations from a re-analysis of the deposited data

How the results depend on the processing

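The settings changed were the offset (0.1 or 5 RPM), a restriction to genes averaging 1 RPM or more, the scaling (quantile normalization or median centring), the trend and robust options of eBayes, and the replicate block. Single libraries were left out, edgeR and DESeq2 were run on the recovered reads, and neighbours' medians were subtracted. No fold change of a member changed sign. The number of members lower was 6, and 4 to 8 over the alternatives other than the restriction and edgeR, whose filters ALDH3A1 passed through HuCCT1/CD90- alone: 4 to 5 with 1 library left out, 5 with the replicate block and with the trend and robust settings, 7 with quantile normalization and median centring, and 8 with DESeq2. These settings also called more of all genes: 5326 of 14399 with DESeq2, and 4000 and 5136 of 20811 with quantile normalization and median centring. The restriction to genes of at least 1 RPM called 5028 of 12062 genes and edgeR 5349 of 12070. The replicate block together with that restriction put 1 member higher, ALDH1B1. The number past the study's thresholds, 7, was 6 to 8. Over all genes, 3939 were called, 2729 with the replicate block and 2197 to 2932 with 1 library left out. The pairing was taken from the data alone.

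Of the other ALDH genes, 0 were called by limma, 1 with the offset of 0.1 RPM, 1 with only genes of at least 1 RPM, 2 with median centring, edgeR and DESeq2, and 0 to 1 with 1 library left out, the 1 being without HuCCT1/CD90+ replicate 1. With 1 library left out the retinoid pathway gave 4 to 10 calls where all libraries gave 8. It gave 4 without HuCCT1/CD90- replicate 3 or HuCCT1/CD90+ replicate 3 and 5 without HuCCT1/CD90+ replicate 1 or 2. The retinoic acid induced list (6) gave 2 to 6, with 2 without replicate 3 of either line and 3 without replicate 2 of either line. The other aldehyde and alcohol enzymes (5) gave 1 to 3 and 2 with the replicate block, with 1 without replicate 2 of either line, 2 without HuCCT1/CD90+ replicate 1 or 3 and 3 without HuCCT1/CD90- replicate 1 or 3. Proline metabolism (1) gave 1 to 2, with 2 without HuCCT1/CD90+ replicate 1, 3 with only genes of at least 1 RPM, 2 with edgeR and 3 with DESeq2. Lysine and betaine metabolism (1) gave 0 to 1, with 1 kept only without HuCCT1/CD90- replicate 2, 0 with the replicate block, and 2 with the restriction to 1 RPM and with median centring. NRF2 targets (6) gave 3 to 6, with 3 without replicate 2 of either line, and 2 with the replicate block. The cause of these differences was not tested. Leaving out a library leaves fewer samples.

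At this depth ALDH1A2, ALDH3A2, ALDH1L1, ALDH3B2 and ALDH8A1 rest on few reads. Amplicon positions are not given, and 1 transduced line per condition limits what the comparison covers.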
